A study of Homo sapiens with 12 samples.

Results

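The unfolded protein response and the integrated stress response were followed through 36 genes: 4 stress sensors, 7 transcription factors, 3 feedback or effector targets of those factors, 4 enzymes of serine and asparagine synthesis, 10 chaperones or cochaperones of the endoplasmic reticulum (ER), 4 enzymes or oxidases of disulfide bond formation and 4 components of ER-associated degradation (ERAD). They were taken by name from the 60617 gene identifiers of the series, and all 36 were among the 15692 genes expressed highly enough to be tested. The 36 were chosen with earlier results of these data known. Their counts and medians beside those of all genes are therefore a description and not a test. RNA-seq had been performed on 12 libraries of human colon cancer cells. HCT 116p53-/- is a derivative of the HCT116 colorectal line with both p53 alleles deleted. The second line, uL3ΔHCT 116p53-/-, carries the same p53 deletion and is labelled as a knockout (KO) of RPL3, the gene for ribosomal protein uL3; the study describes it as stably silenced, and its number of clones is not given. Cells of each line received vehicle or 5 nM Act D (actinomycin D, which at low dose blocks transcription of ribosomal RNA) for 24 h. There were 3 libraries in each of the 4 groups, which the labels call biological replicates, and p53 was absent by genotype in every group.

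When unfolded proteins accumulate in the ER, the membrane sensors ERN1 (IRE1), ATF6 and EIF2AK3 (PERK) are activated. ERN1 splices the XBP1 transcript, ATF6 is cut by Golgi proteases to release a transcription factor, and PERK phosphorylates the translation factor eIF2, which lowers bulk protein synthesis while allowing translation of ATF4. EIF2AK4 (GCN2) phosphorylates eIF2 when amino acids are short, so that ATF4 is the common output of the integrated stress response. ATF6 and spliced XBP1 are known for inducing chaperones and ERAD genes, and ATF4 for inducing amino acid synthesis genes and, with DDIT3 (CHOP), the feedback genes PPP1R15A, TRIB3 and CHAC1. Much of this control is on splicing, cleavage and translation, and counts per gene do not hold those steps; spliced and unspliced XBP1, in particular, were counted together.

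Total counts per library were between 10087925 and 21138886. Levels below are CPM, the counts of a gene as a rate over its library's total count after TMM scaling, and every fold change is the log2 ratio of the fitted group means from edgeR's quasi-likelihood test, whose p-values were adjusted over all 15692 genes by the Benjamini-Hochberg method; a gene is called changed at an adjusted p under 0.05. RPL3 was at 1138 ± 15.3 CPM in the HCT 116p53-/- libraries and 1242 ± 82.5 CPM in the uL3Δ-labelled libraries with vehicle (SD, n = 3 each; log2 difference 0.13, adjusted p = 0.155), so the label of these libraries was not borne out by a lower RPL3 level. KRT8 and KRT18 were abundant in every library, and the summed level of 12 colon epithelial markers was 2481 to 2682 CPM in the HCT 116p53-/- libraries and 1592 to 1784 CPM in the uL3Δ-labelled libraries with vehicle, with CDX1 and CDH17 at 0 in the HCT 116p53-/- libraries. KRT8 and KRT18 carried that sum in the uL3Δ-labelled libraries, whereas in the HCT 116p53-/- libraries KRT19 gave as much as KRT18 (609 and 605 CPM). Other epithelial markers were far lower in the uL3Δ-labelled libraries with vehicle: CDH1 had a mean of 0.445 CPM against 66.8, CDX2 0.177 against 14.8, KRT19 36.6 against 609 and EPCAM 35.5 against 153. KRT18 was higher there, at 840 CPM against 605, and KRT8 was at 777 against 1117. The sum of 11 mesenchymal markers was 49.7 to 59.0 CPM in HCT 116p53-/- cells (DCN and LUM at 0) and 2547 to 2631 CPM in the uL3Δ-labelled libraries, of which VIM alone gave 2237. Not every marker moved with this sum. COL1A1 was lower in the uL3Δ-labelled libraries, with a mean of 4.14 CPM against 7.50 with vehicle and 4.35 against 10.2 with Act D. Means of CDH2, COL1A2, DCN and THY1 were under 1 CPM in every group. With Act D the epithelial sums were 2684 to 2814 and 1737 to 1983 CPM (CDX1 at 0 in HCT 116p53-/- cells, CDX1 and KRT20 in the uL3Δ-labelled libraries) and the mesenchymal sums 57.7 to 92.0 and 2547 to 2893 CPM, and 5 endothelial markers summed to at most 2.09 CPM in any library. Of 6 immune markers, which summed to 8.09 to 12.8 CPM in HCT 116p53-/- cells and 25.3 to 36.9 CPM in the uL3Δ-labelled libraries, CD68 was the highest and CD3E was at 0. The mesenchymal and epithelial sums thus moved with the line, without overlap in either treatment, and their part in the results below was not tested.

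Per kilobase of effective transcript length, the most abundant of the 36 genes in vehicle-treated HCT 116p53-/- cells were the lectin chaperones and HSP90 of the ER lumen. CALR (calreticulin, which holds folding glycoproteins) had a mean of 419.8 CPM per kb, HSP90B1 (GRP94) had 332 and CANX (calnexin, the membrane-bound partner of calreticulin) had 218. ATF4 came next with 191 CPM per kb, above HSPA5 (BiP, the Hsp70 chaperone that also holds the sensors inactive) with 89.3. In the uL3Δ-labelled libraries with vehicle the means were 581 CPM per kb for CALR, 412 for ATF4 and 251 for HSPA5. The lower end was formed by EDEM1, at 2.09 CPM per kb in HCT 116p53-/- cells with vehicle, ERO1B at 0.826 and NUPR1 at 0.186. NUPR1, a small chromatin protein induced by stress, had between 3 and 22 counts in a library, so that no difference of moderate size was detectable for it at this depth; the other 35 genes had at least 44 counts in every library.

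**Figure D1:**
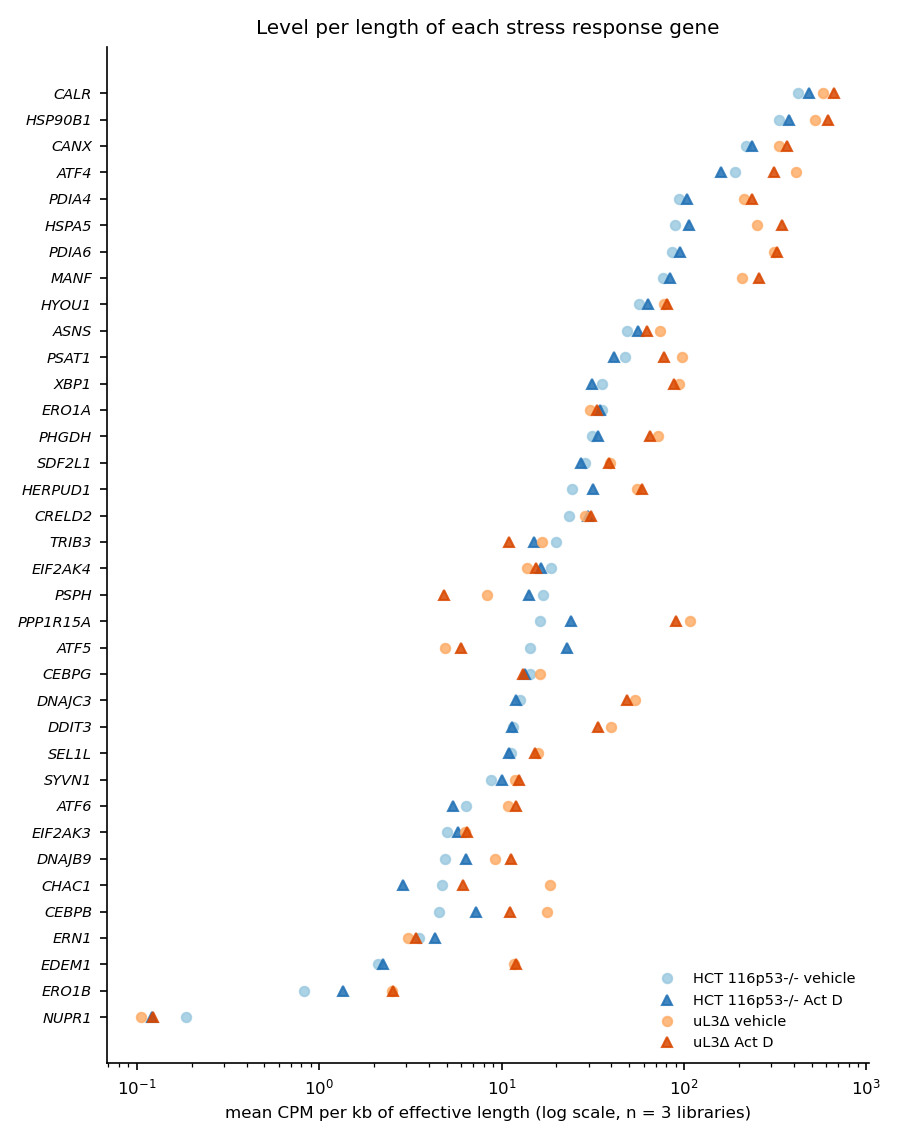
Mean level of each of the 36 genes per kilobase of effective transcript length (x axis, CPM per kb, log scale) in the 4 groups of 3 libraries, ordered by the level in vehicle-treated HCT 116p53-/- cells. CALR is highest at 419.8 CPM per kb and NUPR1 lowest at 0.186 in that group, and the points of the uL3Δ-labelled libraries (orange) lie to the right for most genes.

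Whether the cells labelled uL3Δ differ from HCT 116p53-/- cells in the absence of drug was asked first. With vehicle, 27 of the 36 genes were higher and 3 were lower in the uL3Δ-labelled libraries, where 35.1% of all genes tested were higher and 36.2% lower. The median log2 fold change of the 36 was 0.71, beside -0.02 over all genes. By role, 9 of 10 chaperones, 4 of 4 ERAD genes, 3 of 4 disulfide bond enzymes, 3 of 4 amino acid synthesis enzymes, 4 of 7 transcription factors, 2 of 3 feedback or effector targets and 2 of 4 sensors were higher. The genes that were lower were ATF5, PSPH and the sensor EIF2AK4. In RNA from whole cultures, a change in the share of cells that express a gene and a change in its RNA per cell cannot be told apart. Scaling by library size alone moves the median of all genes between the lines by -0.24 with either treatment, and under it 22 of the 36 were higher and 6 lower with vehicle. Under the same scaling 4202 of all 15692 genes were higher and 6974 lower.

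In the presence of Act D, 25 of the 36 genes were higher and 4 lower in the uL3Δ-labelled libraries, against 35.1% and 35.3% of all genes, and the median was 0.67, beside -0.02 over all genes. All 25 were also among the 27 higher with vehicle. That comparison used other libraries, but of the same lines and in the same fit, so it is not independent support. The share of all genes that were higher with both treatments was not determined. Of the genes lower with vehicle, ATF5 and PSPH were lower with Act D as well, EIF2AK4 was not called, and TRIB3 and ERN1 were lower with Act D. Scaling by library size alone gave 20 higher and 7 lower, beside 4244 higher and 6825 lower of all 15692 genes.

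**Figure D2:**
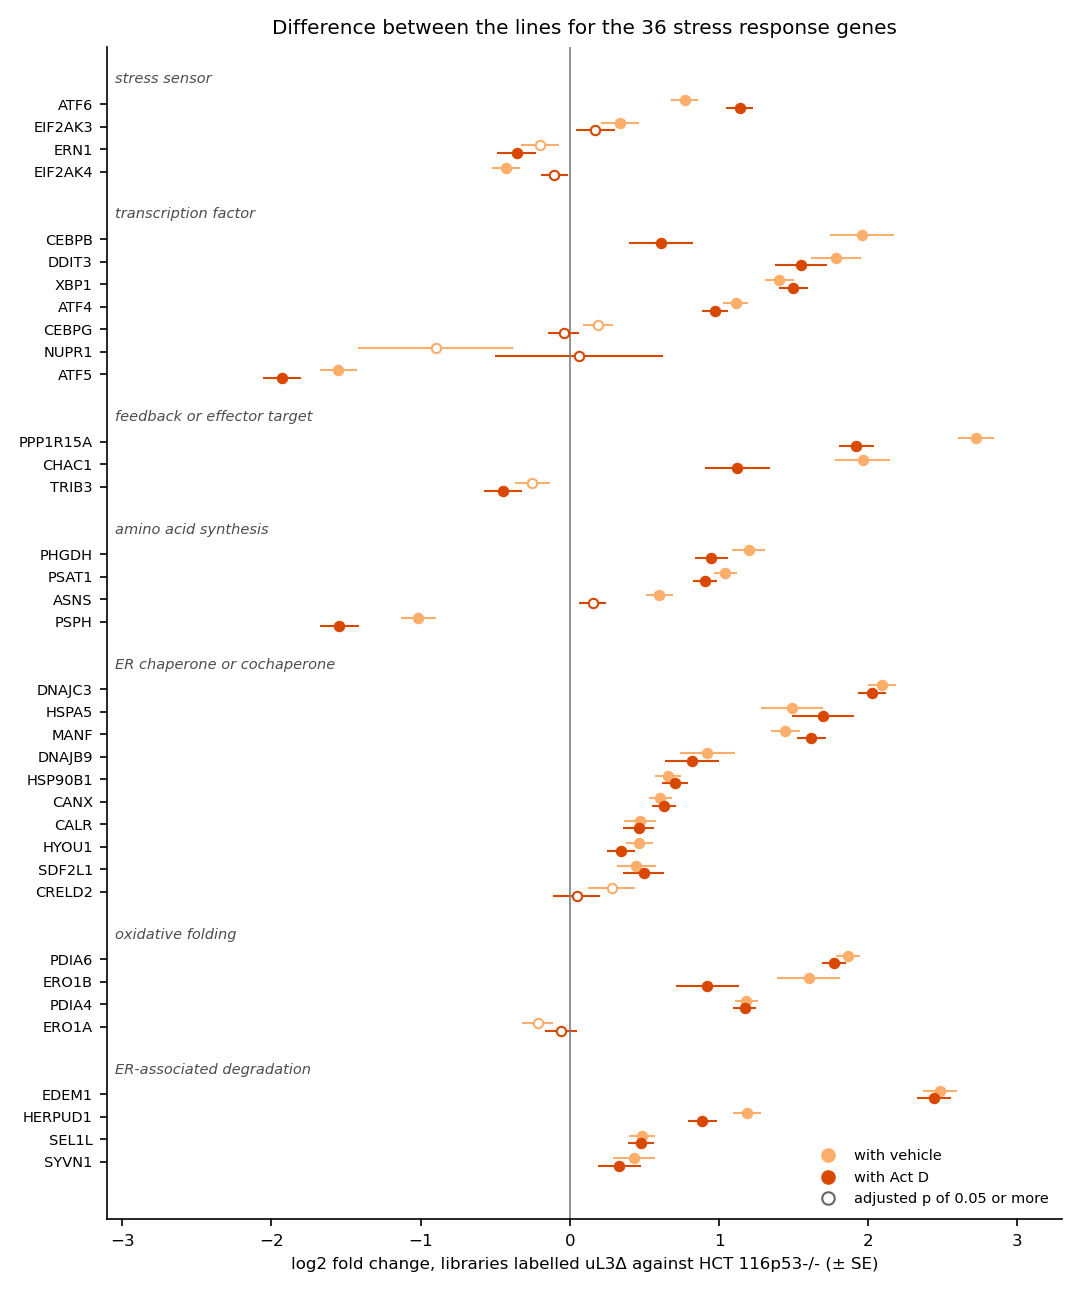
Log2 fold change between the uL3Δ-labelled libraries and HCT 116p53-/- libraries (x axis, ± SE of the fit, 3 libraries a group) for each of the 36 genes, grouped by role, with vehicle (light) and with Act D (dark). Filled points have an adjusted p under 0.05. PPP1R15A (2.73 with vehicle) and EDEM1 (2.48) lie farthest to the right, and ATF5 (-1.55) and PSPH (-1.01) farthest to the left among called genes.

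Among the sensors, ATF6 was the one that was higher with both treatments. ATF6 (ENSG00000118217, chromosome 1, 161766298 to 161977574, plus strand; hg38 for all coordinates) was at 46.1, 46.2 and 45.9 CPM in the HCT 116p53-/- libraries and at 73.1, 79.7 and 82.7 CPM in the uL3Δ-labelled libraries with vehicle, and the groups did not overlap. The log2 fold change was 0.77 (SE 0.09, adjusted p = 4.49e-07) with vehicle and 1.14 (SE 0.09, adjusted p = 3.69e-09) with Act D. EIF2AK3, which encodes PERK, was at 17.9, 15.5 and 16.5 CPM and 18.4, 22.2 and 22.3 CPM with vehicle, a difference of 0.34 (SE 0.13, adjusted p = 0.024) that lost its call without replicate 2 or replicate 3 of either vehicle group (adjusted p = 0.0568 to 0.0849 in those 4 fits) and fell to 0.09 (adjusted p = 0.511) under library size scaling. EIF2AK4, which encodes the amino acid sensor GCN2, was lower with vehicle, at 50.8, 52.8 and 56.9 CPM against 69.3, 68.6 and 78.1 CPM, with a log2 fold change of -0.43 (SE 0.09, adjusted p = 0.000415). With Act D its groups overlapped, at -0.10 (adjusted p = 0.334). ERN1, which encodes IRE1, was at 14.5, 16.4 and 14.7 CPM in the HCT 116p53-/- libraries and 14.1, 12.5 and 13.3 CPM in the uL3Δ-labelled libraries with vehicle, -0.20 (adjusted p = 0.177). Its difference with Act D of -0.35 (SE 0.13, adjusted p = 0.0225) was lost without replicate 3 of Act D-treated HCT 116p53-/- cells (adjusted p = 0.0617) or replicate 1 of the Act D-treated uL3Δ-labelled libraries (adjusted p = 0.15).

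Of the transcription factors, XBP1, ATF4, DDIT3 and CEBPB were higher in the uL3Δ-labelled libraries with either treatment, and ATF5 was lower. ATF4 (ENSG00000128272, chromosome 22, 39519695 to 39522683, plus strand) was at 253, 252 and 221 CPM in vehicle-treated HCT 116p53-/- cells, 198, 207 and 201 CPM with Act D, 566, 536 and 465 CPM in the vehicle-treated uL3Δ-labelled libraries and 386, 409 and 392 CPM in those with Act D. Every uL3Δ-labelled library was above every HCT 116p53-/- library, with log2 fold changes of 1.11 (SE 0.09, adjusted p = 1.91e-09) with vehicle and 0.97 (SE 0.09, adjusted p = 1.39e-08) with Act D. XBP1 (ENSG00000100219, chromosome 22, 28794555 to 28800597, minus strand), the substrate of IRE1 splicing, was at 63.6, 53.7 and 61.3 CPM in the HCT 116p53-/- libraries and 148, 171 and 153 CPM in the uL3Δ-labelled libraries with vehicle. That is 2.65 times as high, a log2 fold change of 1.40 (SE 0.10, adjusted p = 4.42e-10), and with Act D the ratio was 2.83 (1.50 (adjusted p = 2.53e-10) on the log2 scale).

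DDIT3 (ENSG00000175197, chromosome 12, 57516588 to 57521737, minus strand), which encodes the CHOP factor of prolonged ER stress, was at 9.85, 8.47 and 7.43 CPM in HCT 116p53-/- cells with vehicle and at 22.4, 36.7 and 29.1 CPM in the uL3Δ-labelled libraries. The groups were well apart, at 1.79 (SE 0.17, adjusted p = 2.83e-08), although the uL3Δ-labelled libraries spread widely among themselves. DDIT3 shares 355 of its 1307 annotated exonic bases with MARS1 on the opposite strand and 58 with MBD6, and the use of strand in counting is not given in the sources used here. MARS1 differed between the lines by 0.88 (adjusted p = 1.11e-07) and MBD6 by 1.41 (adjusted p = 3.43e-06) with vehicle, and the share of their reads in the DDIT3 counts was not tested. CEBPB (ENSG00000172216, chromosome 20, 50190830 to 50192668, plus strand), a leucine zipper partner of ATF4 and CHOP, was at 7.0, 8.88 and 8.63 CPM and 38.6, 29 and 28.3 CPM with vehicle, a difference of 1.96 (SE 0.22, adjusted p = 2.42e-07). With Act D the difference was 0.61 (SE 0.22, adjusted p = 0.0181), and the groups overlapped because replicate 2 of HCT 116p53-/- stood at 19.5 CPM. That call was lost without replicate 1 or 3 of Act D-treated HCT 116p53-/- cells or replicate 2 of the Act D-treated uL3Δ-labelled libraries (adjusted p = 0.0648 to 0.122), and under library size scaling (0.166).

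ATF5 (ENSG00000169136, chromosome 19, 49928702 to 49933935, plus strand), a relative of ATF4 that is likewise translated when eIF2 is phosphorylated, went the other way. It was at 24.2, 28.4 and 23.4 CPM in HCT 116p53-/- cells with vehicle and 8.51, 7.96 and 9.52 CPM in the uL3Δ-labelled libraries, 2.93 times lower (-1.55 (SE 0.13, adjusted p = 4.41e-09) on the log2 scale). With Act D the levels were 46.3, 37.5 and 36.8 CPM and 10.6, 10.2 and 10.9 CPM, 3.81 times lower (-1.93 (SE 0.13, adjusted p = 3.04e-10)). ATF5 shares 565 of 2892 exonic bases with NUP62 on the opposite strand, and NUP62 was lower as well, by -0.87 with vehicle (adjusted p = 1.01e-07). CEBPG, another dimer partner of ATF4, was at 52.7, 43.6 and 46.1 CPM and 53.9, 57 and 51.1 CPM with vehicle and overlapped between the lines, 0.19 (adjusted p = 0.102). NUPR1 was between 0.200 and 1.33 CPM in all libraries.

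The largest difference among all 36 genes was in a feedback gene. PPP1R15A (ENSG00000087074, chromosome 19, 48872212 to 48876059, plus strand), which encodes GADD34, the regulatory subunit that directs a phosphatase to eIF2, was at 41.4, 35.3 and 28.4 CPM in the HCT 116p53-/- libraries and 214, 246 and 234 CPM in the uL3Δ-labelled libraries with vehicle. That was 6.62 times as high, 2.73 (SE 0.12, adjusted p = 9.9e-13) on the log2 scale. With Act D the levels were 52, 48.6 and 53.9 CPM and 219, 189 and 175 CPM, a difference of 1.92 (SE 0.12, adjusted p = 9.9e-11). CHAC1 (ENSG00000128965, chromosome 15, 40952962 to 40956512, plus strand), which encodes a glutathione-degrading cyclotransferase, was at 6.16, 7.85 and 4.77 CPM and 24.1, 26.9 and 21.9 CPM with vehicle, with a difference of 1.96 (SE 0.19, adjusted p = 3.12e-08). TRIB3, a pseudokinase that binds ATF4 and CHOP, did not move with them. It was at 34.4, 42.7 and 36.9 CPM and 32.3, 35.8 and 27.4 CPM with vehicle, where the groups overlapped (-0.25 (adjusted p = 0.0634)), and with Act D it was lower in the uL3Δ-labelled libraries, at 23.7, 20.7 and 18.1 CPM against 28.1, 29.2 and 28.4 CPM (-0.45 (SE 0.13, adjusted p = 0.00419)).

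The 3 enzymes of serine synthesis were split. PHGDH, the first enzyme, was at 45.6, 48.9 and 44 CPM in the HCT 116p53-/- libraries and 123, 104 and 91.4 CPM in the uL3Δ-labelled libraries with vehicle, 2.30 times as high (adjusted p = 2.05e-08). PSAT1, the aminotransferase of the second step, was at 100.4, 95.5 and 90.8 CPM and 186, 211 and 194 CPM, with 1.04 (SE 0.08, adjusted p = 1.59e-09). PSPH, the phosphatase of the last step, was lower, at 13.3, 12.3 and 9.99 CPM against 23.9, 23.6 and 24.3 CPM, with -1.01 (SE 0.11, adjusted p = 3.12e-07). With Act D the differences were 0.95 (adjusted p = 5.36e-07), 0.91 (adjusted p = 1.38e-08) and -1.54 (adjusted p = 6.17e-09) for PHGDH, PSAT1 and PSPH in turn. Asparagine synthetase, ASNS, was at 91.6, 77.3 and 77.4 CPM and 125, 131 and 117 CPM with vehicle (0.60 (SE 0.09, adjusted p = 1.15e-05)). The lines stood closer for ASNS with Act D, at 98, 87.6 and 96.8 CPM and 99.5, 114 and 101 CPM, and the difference was not called (0.15 (adjusted p = 0.141)).

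Of the 10 ER chaperones and cochaperones, 9 were higher with each treatment, and CRELD2, which was not called, had positive values that turned to -0.19 with Act D under library size scaling. The largest was DNAJC3 (ENSG00000102580, chromosome 13, 95677139 to 95794988, plus strand), which encodes p58IPK, a cochaperone of BiP. It was at 73.4, 63.1 and 67.8 CPM in the HCT 116p53-/- libraries and 296, 288 and 288 CPM in the uL3Δ-labelled libraries with vehicle, 4.27 times as high (2.09 (SE 0.09, adjusted p = 1.17e-12)), and with Act D at 61.7, 61.1 and 71.3 CPM and 239, 292 and 259 CPM (2.03 (SE 0.09, adjusted p = 2.58e-12)). HSPA5 (ENSG00000044574, chromosome 9, 125234853 to 125241382, minus strand), the standard readout of the unfolded protein response, was at 276, 286 and 443 CPM in vehicle-treated HCT 116p53-/- cells and 1270.2, 786 and 767 CPM in the uL3Δ-labelled libraries. It was at 365, 394 and 438 CPM and 1101, 1106 and 1686 CPM with Act D. Although replicates of one group were far apart, the lowest uL3Δ-labelled library was above the highest HCT 116p53-/- library, and the log2 fold changes were 1.49 (SE 0.21, adjusted p = 4.16e-06) with vehicle and 1.70 (SE 0.21, adjusted p = 9.49e-07) with Act D. MANF, a secreted ER protein that binds BiP, was at 39.7, 38.3 and 31.7 CPM and 94.4, 106 and 97.7 CPM with vehicle (1.44 (SE 0.10, adjusted p = 2.72e-10)).

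The other chaperones differed by less. DNAJB9 (ERdj4, a BiP cochaperone) had a log2 fold change of 0.92 (SE 0.18, adjusted p = 0.000206) with vehicle, HSP90B1 of 0.66 (SE 0.09, adjusted p = 2.62e-06) and CANX of 0.61 (SE 0.08, adjusted p = 1.95e-06). For CANX the values were 967, 878 and 842 CPM in the HCT 116p53-/- libraries and 1364, 1352 and 1381 CPM in the uL3Δ-labelled libraries, so that a modest difference was far outside the spread. CALR (0.47 (adjusted p = 0.0007)), HYOU1 (0.47 (adjusted p = 0.000185); the Hsp110-type exchange factor of BiP) and SDF2L1 (0.45 (adjusted p = 0.00571); a stabiliser of BiP cochaperone complexes) were called with both treatments, and each lost both calls under library size scaling. CRELD2, a disulfide isomerase-like secreted protein, was at 27.3, 29.1 and 28.5 CPM and 45.1, 30.9 and 27.5 CPM with vehicle, where replicate 1 labelled uL3Δ stood above the rest and the groups overlapped (0.28 (adjusted p = 0.117)). CRELD2 shares 168 of 5166 exonic bases with ALG12 on the opposite strand.

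In disulfide bond formation, PDIA6 and PDIA4 were clearly apart between the lines. PDIA6 (ENSG00000143870, chromosome 2, 10783391 to 10837977, minus strand), a protein disulfide isomerase that also attenuates IRE1 signalling, was at 198, 182 and 177 CPM in the HCT 116p53-/- libraries and 654, 722 and 652 CPM in the uL3Δ-labelled libraries with vehicle, 3.64 times as high (1.87 (SE 0.08, adjusted p = 5.06e-13)). The difference with Act D was 1.77 (SE 0.08, adjusted p = 1.24e-12). PDIA4 (ERp72) was at 249, 253 and 235 CPM and 576, 564 and 534 CPM with vehicle (1.18 (SE 0.08, adjusted p = 2.63e-10)). The oxidases that recharge these isomerases were not alike: ERO1B was at 3.37, 3.17 and 3.32 CPM and 9.48, 11.6 and 8.85 CPM (1.60 (SE 0.21, adjusted p = 2.36e-06)), whereas ERO1A, which was far more abundant per length, was at 154, 119.8 and 142 CPM and 117, 127 and 115 CPM and overlapped (-0.22 (adjusted p = 0.0784)).

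ERAD, which returns misfolded proteins to the cytosol for destruction, was higher in all 4 of its genes. EDEM1 (ENSG00000134109, chromosome 3, 5187646 to 5219958, plus strand), a lectin that draws misfolded glycoproteins out of the folding cycle, was at 12.8, 9.50 and 12.6 CPM in the HCT 116p53-/- libraries and 65, 65.4 and 65.4 CPM in the uL3Δ-labelled libraries with vehicle. That was 5.59 times as high (2.48 (SE 0.11, adjusted p = 1.36e-12)), with replicates labelled uL3Δ nearly identical. With Act D the values were 10.9, 12.6 and 13.8 CPM and 65.1, 67.7 and 69.1 CPM (2.44 (SE 0.11, adjusted p = 2.61e-12)). HERPUD1, a membrane protein that organises the degradation complex, was at 36.7, 31.5 and 32.5 CPM and 68.4, 82.7 and 78.1 CPM (1.19 (SE 0.10, adjusted p = 3.94e-09)). SEL1L, the adaptor of the ubiquitin ligase, was at 80.1, 69.6 and 68.5 CPM and 107, 97.1 and 101 CPM (0.49 (SE 0.08, adjusted p = 5.84e-05)). SYVN1 (HRD1), the ligase itself, had 0.43 (adjusted p = 0.0121) with vehicle and 0.33 (adjusted p = 0.0492) with Act D. Its call with vehicle was lost without replicate 1 of vehicle-treated HCT 116p53-/- cells (adjusted p = 0.0728) or of the uL3Δ-labelled libraries (0.0581), and its call with Act D was lost without any 1 of the 6 libraries (0.0592 to 0.156) and with DESeq2 (0.05003), upper-quartile scaling (0.0509) and no filter on low counts (0.061). Under library size scaling both calls were lost, at 0.19 (adjusted p = 0.28) with vehicle and 0.09 (adjusted p = 0.618) with Act D. SYVN1 also shares 356 of 5495 exonic bases with MRPL49 on the opposite strand and 130 with FAU on the same strand. FAU was higher in the uL3Δ-labelled libraries by 0.87 (adjusted p = 6.23e-07) with vehicle and 0.55 (adjusted p = 0.000126) with Act D, and the share of its reads in the SYVN1 counts was not tested.

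**Figure D3:**
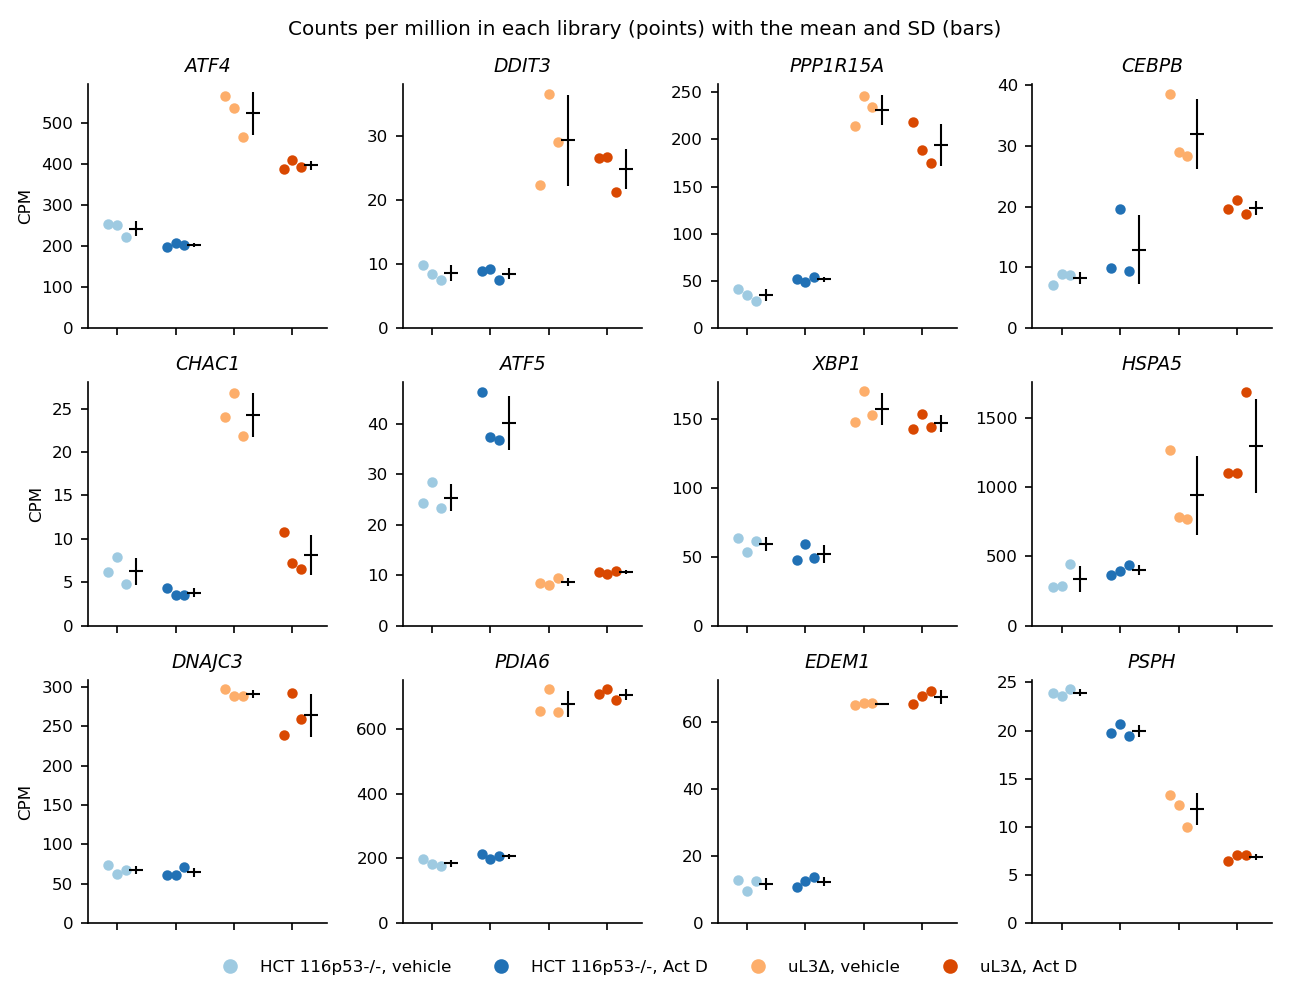
Normalised level (y axis, CPM, from 0) of 12 of the 36 genes in each of the 12 libraries (points), with the mean and SD of each group of 3 (bars). For 8 of them (ATF4, DDIT3, PPP1R15A, XBP1, HSPA5, DNAJC3, PDIA6 and EDEM1) all uL3Δ-labelled libraries lie above all HCT 116p53-/- libraries, and for ATF5 and PSPH they lie below. For CHAC1 the Act D-treated uL3Δ-labelled libraries reach down to the vehicle-treated HCT 116p53-/- libraries, and for CEBPB replicate 2 of Act D-treated HCT 116p53-/- cells, at 19.5 CPM, overlaps with the Act D-treated uL3Δ-labelled libraries.

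Because so many chaperone and ERAD genes lay on the same side, the promoters of the 36 genes were read for the elements through which ATF6, XBP1 and ATF4 are known to act. RefSeq promoters (GRCh38.p14, 250 bases before to 50 after each start) were matched for 34 of the 36 genes; NUPR1 and PSPH had none. Both strands were searched for 4 motifs. The ER stress response element, ERSE, was searched as CCAAT and CCACG with any 9 bases between them, and ERSE-II as ATTGG and CCACG with any 1 base between them. The XBP1-type element, UPRE, was TGACGTGG and the C/EBP-ATF response element, CARE, was TGATGNAA. The 8 genes with an ERSE are shown first, as the set that shares the chaperone element. Each stretch is written 5′ to 3′ on the strand on which the element reads forward, with the letters of the element in capitals and up to 10 bases on either side.
HSPA5, ERSE, chr9:125241381-125241419, minus strand: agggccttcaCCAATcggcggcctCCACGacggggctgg
XBP1, ERSE, chr22:28800593-28800631, minus strand: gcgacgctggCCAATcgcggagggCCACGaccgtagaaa
HSP90B1, ERSE, chr12:103930206-103930244, plus strand: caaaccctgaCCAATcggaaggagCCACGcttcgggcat
HSP90B1, ERSE, chr12:103930311-103930349, minus strand: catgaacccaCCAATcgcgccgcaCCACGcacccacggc
CALR, ERSE, chr19:12938374-12938412, minus strand: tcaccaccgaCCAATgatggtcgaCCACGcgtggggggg
CANX, ERSE, chr5:179698768-179698806, plus strand: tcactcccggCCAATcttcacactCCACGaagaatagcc
CRELD2, ERSE, chr22:49918544-49918582, minus strand: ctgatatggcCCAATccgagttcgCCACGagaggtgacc
PDIA6, ERSE, chr2:10812843-10812881, minus strand: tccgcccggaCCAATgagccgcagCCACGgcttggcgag
ERO1B, ERSE, chr1:236282173-236282208, plus strand: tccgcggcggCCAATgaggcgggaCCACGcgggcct

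An ERSE was present in 0.0769% of the 35116 promoter windows of all genes (27 windows of 25 genes, 0.0916% of gene symbols), and 8 of those 25 genes were among the 36. The 36 were chosen by name and include known targets of ATF6 and XBP1. This overlap therefore reflects the choice of genes and is not a result of these data. The element lies from 66 to 48 bases before the start in HSPA5 and from 52 to 34 bases before it in XBP1. HSP90B1 holds an ERSE on each strand. For PDIA6 and CANX, which have several RefSeq starts, the match belongs to only some of their windows, and in 1 window of CANX it spans the start. The 3 genes with an ERSE-II (0.0541% of windows and 0.0696% of gene symbols) are shown next, HYOU1 with a pair of copies, of which the one farther from the start also overlaps a UPRE match on the gene strand (0.729% of windows and 0.927% of gene symbols).
HYOU1, ERSE-II, chr11:119057264-119057294, plus strand: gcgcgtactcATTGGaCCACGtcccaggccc
HYOU1, ERSE-II, chr11:119057370-119057400, plus strand: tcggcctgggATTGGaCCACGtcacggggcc
SDF2L1, ERSE-II, chr22:21642104-21642134, minus strand: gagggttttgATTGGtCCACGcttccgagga
HERPUD1, ERSE-II, chr16:56932015-56932045, plus strand: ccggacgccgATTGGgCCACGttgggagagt

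A CARE match, the element of ATF4 targets, was present in 4 of the 34 genes with a promoter. Of all genes, 4.46% of symbols and 3.62% of windows held one.
ASNS, CARE, chr7:97872459-97872486, minus strand: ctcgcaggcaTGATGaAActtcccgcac
CHAC1, CARE, chr15:40953252-40953279, minus strand: ctggcaggagTGATGcAAcggcagggga
CEBPG, CARE, chr19:33374061-33374088, plus strand: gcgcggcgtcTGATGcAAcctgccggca
HERPUD1, CARE, chr16:56931956-56931983, minus strand: gggcacgggcTGATGcAAcccgccgcgt

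Of the 11 genes with an ERSE or ERSE-II, 10 were higher in the uL3Δ-labelled libraries with vehicle and 10 with Act D (all but CRELD2), with median log2 fold changes of 0.66 and 0.71. Of the 23 matched genes without one, 17 were higher and 2 lower with vehicle, with a median of 0.92, and 15 were higher and 3 lower with Act D, with a median of 0.82. PPP1R15A, EDEM1 and DNAJC3, the 3 genes with the largest differences with vehicle, hold none of the 4 runs of letters in these windows. A match here is a run of letters and not a measured binding site.

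**Figure D4:**
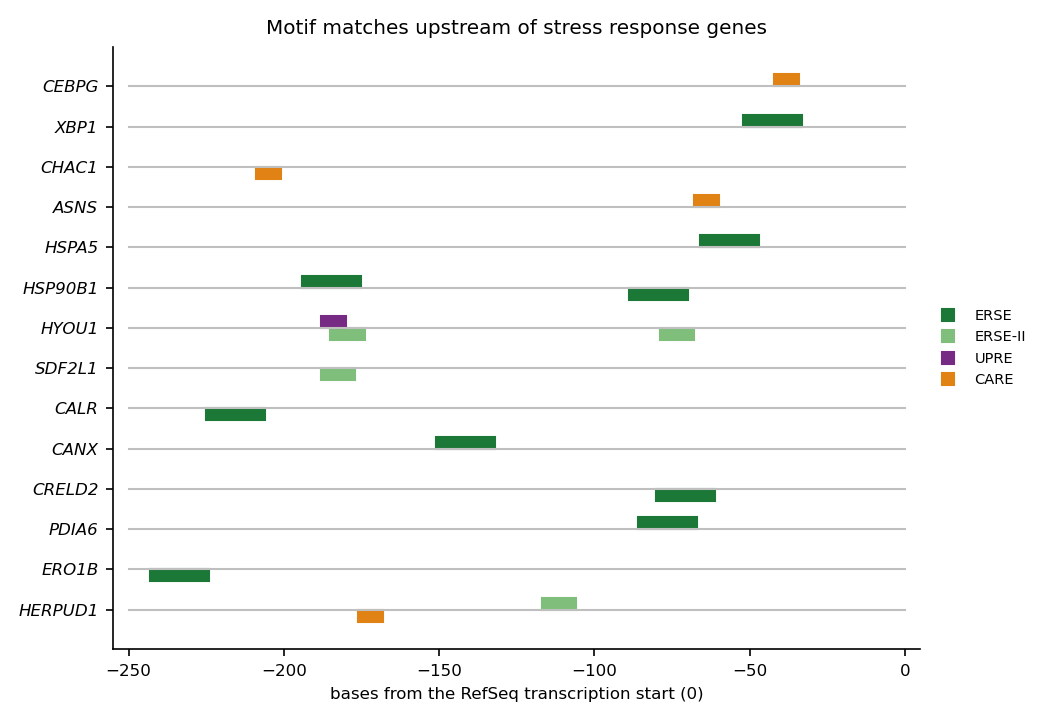
Positions of the motif matches (coloured blocks) in the 250 bases before the RefSeq start (x axis, bases, 0 is the start) of the 14 genes that hold one; blocks above the line are on the gene strand and blocks below it on the opposite strand. ERSE blocks of HSPA5 and XBP1 lie within 70 bases of the start, and that of ERO1B lies farthest from it, 243 to 225 bases before.

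The effect of Act D within each line was asked next. In HCT 116p53-/- cells Act D raised 5 of the 36 genes and lowered 3, against 7.59% of all genes raised and 11.1% lowered, and the median log2 fold change was 0.12, beside 0.02 over all genes. The 5 that rose were ATF5, CEBPB, PPP1R15A, ERO1B and HERPUD1, and the 3 that fell were ATF4, TRIB3 and CHAC1. In the uL3Δ-labelled libraries, Act D raised 1 gene, MANF, and lowered 6, ATF4, CEBPB, TRIB3, CHAC1, PSAT1 and PSPH, against 3.51% of all genes raised and 8.4% lowered, and the median was 0.04, beside 0.03. Library size scaling gave 2 higher and 6 lower in HCT 116p53-/- cells and 0 higher and 8 lower in the uL3Δ-labelled libraries. The comparisons of Act D with vehicle use the same vehicle libraries as the comparison of the lines with vehicle.

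ATF4, TRIB3 and CHAC1 fell in both lines, which share no library. ATF4 fell by 0.26 on the log2 scale in HCT 116p53-/- cells (SE 0.09, adjusted p = 0.0401) and by 0.40 in the uL3Δ-labelled libraries (SE 0.08, adjusted p = 0.00423), and the groups did not overlap in either. The ATF4 call in HCT 116p53-/- cells was lost without 5 of the 6 libraries in turn, all but replicate 3 with vehicle (adjusted p = 0.0865 to 0.135). It was also lost under upper-quartile scaling (0.0705), with no filter on low counts (0.0617) and with the replicate block (0.0538). TRIB3 changed by -0.41 (SE 0.12, adjusted p = 0.0216) and -0.60 (SE 0.12, adjusted p = 0.00353) in turn, and its call in HCT 116p53-/- cells was lost without replicate 2 with vehicle or any 1 of the 3 with Act D (0.0562 to 0.113). CHAC1 went from 6.16, 7.85 and 4.77 CPM to 4.36, 3.52 and 3.54 CPM in HCT 116p53-/- cells, a change of -0.70 (SE 0.22, adjusted p = 0.0294) that was lost without replicate 1 or 2 with vehicle or replicate 2 or 3 with Act D (0.0606 to 0.148). In the uL3Δ-labelled libraries CHAC1 went from 24.1, 26.9 and 21.9 CPM to 10.8, 7.19 and 6.49 CPM, 2.92 times lower (-1.54 (SE 0.19, adjusted p = 4.04e-05)), which was the largest response to Act D among the 36 genes. The 2 responses of CHAC1 differed by -0.84 (adjusted p = 0.0906), which was not called.

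Genes that rose in HCT 116p53-/- cells included ATF5, which went from 24.2, 28.4 and 23.4 CPM to 46.3, 37.5 and 36.8 CPM (0.67 (SE 0.11, adjusted p = 0.0005)), with no overlap. In the uL3Δ-labelled libraries the change of ATF5 was 0.29 (adjusted p = 0.204), and the responses were not shown to differ (-0.38 (adjusted p = 0.239)). HERPUD1 rose by 0.39 (SE 0.10, adjusted p = 0.00943), from 36.7, 31.5 and 32.5 CPM to 45.4, 41.3 and 45.2 CPM, and lost its call under library size scaling (adjusted p = 0.0814). ERO1B rose from 3.37, 3.17 and 3.32 CPM to 6.73, 3.45 and 5.87 CPM (0.70 (SE 0.22, adjusted p = 0.036)), with replicate 2 barely above the vehicle libraries, and lost its call without any 1 of the vehicle libraries or replicate 1 or 3 with Act D (0.0772 to 0.214). The ERO1B call was also lost under library size scaling (0.0797) and with the replicate block (0.0552). In the uL3Δ-labelled libraries, MANF rose from 94.4, 106 and 97.7 CPM to 120.0, 117 and 130.4 CPM (0.30 (SE 0.09, adjusted p = 0.0434)), a call lost without any 1 of 5 of the 6 libraries, all but replicate 2 with vehicle (0.0776 to 0.224), and also under library size scaling (0.19, adjusted p = 0.237), with no filter (0.153), in the fit of only the 2 groups (0.0804) and with the replicate block (0.0768). PSPH fell there from 13.3, 12.3 and 9.99 CPM to 6.47, 7.08 and 7.07 CPM (-0.79 (SE 0.13, adjusted p = 0.000626)) and PSAT1 from 186, 211 and 194 CPM to 154, 159 and 155 CPM (-0.34 (SE 0.08, adjusted p = 0.00861)).

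None of the 4 sensors was called for Act D in either line by the quasi-likelihood test with TMM scaling (2 in HCT 116p53-/- cells and 0 in the uL3Δ-labelled libraries had an unadjusted p under 0.05) or by DESeq2. With library size scaling that test called ATF6 lower in HCT 116p53-/- cells (adjusted p = 0.0148). None of the 10 chaperones was called in HCT 116p53-/- cells (1 had an unadjusted p under 0.05, and DESeq2 called 0), with a median log2 fold change of 0.17. In the uL3Δ-labelled libraries 1 of the 10, MANF, was called higher, 3 had an unadjusted p under 0.05 and DESeq2 called 2 higher. HSPA5 itself changed by 0.25 (adjusted p = 0.437) in HCT 116p53-/- cells and by 0.46 (adjusted p = 0.156) in the uL3Δ-labelled libraries, and its groups overlapped in both.

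Whether the responses of the lines differ was tested with the interaction term, which called 0 of the 36 genes higher and 3 lower, against 3.3% and 3.23% of all genes (DESeq2 also called 0 higher, and 2 had an unadjusted p under 0.05). The median of the 36 interaction terms was -0.11, beside -0.01. CEBPB rose with Act D in HCT 116p53-/- cells (0.66 (SE 0.23, adjusted p = 0.0488)), from 7.0, 8.88 and 8.63 CPM to 9.84, 19.5 and 9.33 CPM, and fell in the uL3Δ-labelled libraries (-0.69 (SE 0.21, adjusted p = 0.0374)), from 38.6, 29 and 28.3 CPM to 19.6, 21 and 18.8 CPM, so that the responses differed by -1.35 (SE 0.31, adjusted p = 0.013). The rise in HCT 116p53-/- cells rested on replicate 2 with Act D, without which it was 0.23 (adjusted p = 0.42), and the call was also lost without any 1 of the 3 vehicle libraries (0.0786 to 0.16). Library size scaling (0.11), the replicate block (0.0602) and the fit of only the 2 groups (0.0606) lost it as well. The fall was lost without replicate 1 with vehicle (0.138) or any 1 of the Act D-treated libraries (0.0607 to 0.106), and under upper-quartile scaling (0.0543). The difference between the responses, in contrast, stayed called without any 1 of the 12 libraries.

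PPP1R15A rose in HCT 116p53-/- cells, from 41.4, 35.3 and 28.4 CPM to 52, 48.6 and 53.9 CPM (0.56 (SE 0.12, adjusted p = 0.00315)), and changed by -0.25 (adjusted p = 0.166) in the uL3Δ-labelled libraries, from 214, 246 and 234 CPM to 219, 189 and 175 CPM. The responses differed by -0.81 (SE 0.16, adjusted p = 0.00663), and this call was not lost without any 1 library. ASNS changed by 0.20 (adjusted p = 0.148) and -0.25 (adjusted p = 0.0885), neither of them called, and the difference of -0.45 (SE 0.13, adjusted p = 0.0464) was lost without any 1 of 9 of the 12 libraries, all but replicate 1 with vehicle in HCT 116p53-/- cells, replicate 3 with vehicle and replicate 2 with Act D labelled uL3Δ (adjusted p = 0.0526 to 0.124). The ASNS difference also lost its call under library size scaling (0.0728), upper-quartile scaling (0.0628) and the replicate block (0.0776).

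**Figure D5:**
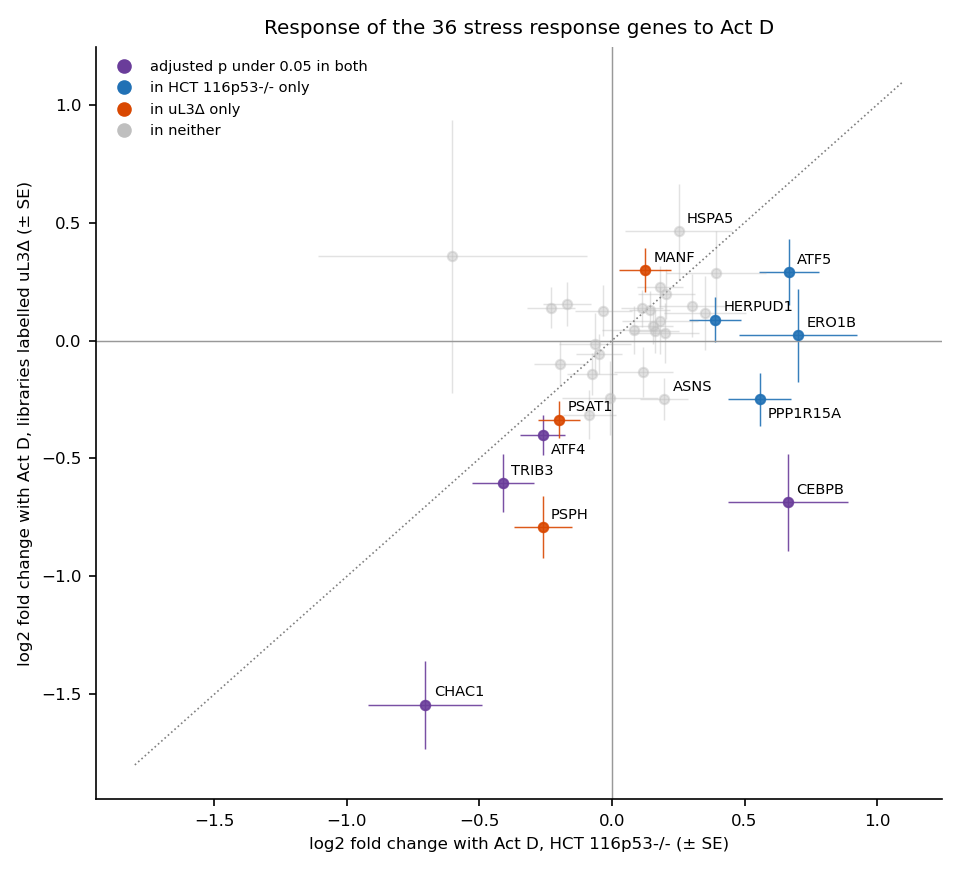
Log2 fold change with Act D against vehicle in HCT 116p53-/- cells (x axis) and in the uL3Δ-labelled libraries (y axis), each ± SE of the fit from 3 libraries a group, for the 36 genes. The dotted line marks equal responses. CEBPB (0.66 and -0.69) and PPP1R15A (0.56 and -0.25) lie far below it, and CHAC1 (-0.70 and -1.54) is the lowest point.

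A further 124 genes of the same pathways, of which 122 were tested, were described beside the 36. These lists too were chosen with earlier results of these data known, so their counts are a description. With vehicle 76 were higher and 22 lower in the uL3Δ-labelled libraries (median log2 fold change 0.48), and with Act D 66 were higher and 31 lower (median 0.35), against the shares of all genes given above. Under library size scaling 60 were higher and 33 lower with vehicle, and 54 and 42 with Act D. Of all 15692 genes that scaling gave 4202 higher and 6974 lower with vehicle, and 4244 and 6825 with Act D. Among 33 other targets of ATF4 and the integrated stress response, 17 (51.5%) were higher and 8 (24.2%) lower with Act D. With vehicle 22 (66.7%) were higher and 5 (15.2%) lower. INHBE, an activin subunit gene induced by ATF4, had 0, 2 and 2 counts in the HCT 116p53-/- libraries and 135, 235 and 182 counts in those labelled uL3Δ with vehicle, or 10.8, 11.8 and 12.3 CPM (adjusted p = 5.11e-11). ALDH1L2, a mitochondrial folate enzyme, had 0.389, 0.344 and 0.362 CPM and 12.3, 14.4 and 15.5 CPM (adjusted p = 1.93e-12). The proline synthesis enzyme PYCR1 and the amino acid transporter SLC7A5 were lower: PYCR1 went from 162 ± 12.9 to 68.7 ± 7.19 CPM (-1.24 (SE 0.09, adjusted p = 1.73e-09)) and SLC7A5 from 449.8 ± 45.2 to 219 ± 21.7 CPM (-1.04 (SE 0.10, adjusted p = 2.08e-08)). Like ATF5 and PSPH, these targets were on the other side from ATF4 itself.

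Of 16 genes for eIF2, its kinases, its exchange factor eIF2B and their regulators, 8 (50%) were higher and 6 (37.5%) lower with vehicle. With Act D 6 (37.5%) were higher and 6 (37.5%) lower. Of all genes tested, 35.1% were higher and 36.2% lower with vehicle, and 35.1% and 35.3% with Act D. Values of single genes in this paragraph are with vehicle. EIF2S1 and EIF2S2, which encode the alpha and beta subunits of eIF2, were higher by 0.84 (SE 0.10, adjusted p = 3.94e-07) and 0.82 (SE 0.08, adjusted p = 5.93e-08), and IMPACT, an inhibitor of GCN2 activation, was lower by -1.56 (SE 0.10, adjusted p = 2.77e-10). OMA1, a mitochondrial protease, went from 16.9 ± 2.86 to 8.46 ± 0.660 CPM (adjusted p = 8.85e-06). Of 41 other ER folding and translocation genes, 29 (70.7%) were higher and 5 (12.2%) lower with vehicle, and 29 (70.7%) and 6 (14.6%) with Act D. DNAJC1 and DNAJB11, both BiP cochaperones, were higher by 2.15 (SE 0.10, adjusted p = 1.29e-12) and 1.72 (SE 0.09, adjusted p = 9.34e-12). HSPA13, an Hsp70-like protein of microsomes, was nearly absent from the uL3Δ-labelled libraries, at 0.803, 0.350 and 0.675 CPM against 47.8, 40.6 and 41.2 CPM in HCT 116p53-/- cells (adjusted p = 2.49e-13). P4HB, the main protein disulfide isomerase, was lower by -0.55 (SE 0.09, adjusted p = 2.48e-05). Of 32 other ERAD genes and ER stress transducers, 17 (53.1%) were higher and 6 (18.8%) lower with vehicle. With Act D 14 (43.8%) were higher and 11 (34.4%) lower. MBTPS1, the protease that makes the first cut in ATF6, went from 139 ± 6.67 to 47.3 ± 2.66 CPM (-1.55 (SE 0.08, adjusted p = 5.29e-12)), and BCL2L11 (BIM), a pro-apoptotic gene, from 30.6 ± 2.20 to 10.6 ± 1.17 CPM (-1.54 (SE 0.14, adjusted p = 1.84e-08)). CREB3L1, an ER-anchored transcription factor related to ATF6, had 0, 7 and 0 counts in the HCT 116p53-/- libraries and 69, 81 and 83 counts in those labelled uL3Δ, or 5.54, 4.05 and 5.60 CPM (adjusted p = 2.23e-07). The pro-apoptotic gene PMAIP1 (NOXA) went from 24.2 ± 3.35 to 107 ± 15.9 CPM (2.15 (SE 0.12, adjusted p = 1.64e-11)).

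Act D raised 19 (15.6%) and lowered 10 (8.2%) of the 122 in HCT 116p53-/- cells, against 7.59% and 11.1% of all genes, and raised 6 (4.92%) and lowered 19 (15.6%) in the uL3Δ-labelled libraries, against 3.51% and 8.4%. Library size scaling gave 6 raised and 13 lowered of the 122 in HCT 116p53-/- cells, while for the uL3Δ-labelled libraries it gave 2 raised and 22 lowered. The interaction was called higher for 2 and lower for 9, against 3.3% and 3.23% of all genes. In HCT 116p53-/- cells the stress-induced genes SESN2 and ATF3 rose, SESN2 from 15.3 ± 2.22 to 40.6 ± 1.97 CPM (1.41 (SE 0.13, adjusted p = 1.45e-06)) and ATF3 from 11 ± 0.330 to 27.6 ± 0.489 CPM (1.33 (SE 0.16, adjusted p = 1.78e-05)). BBC3 (PUMA), another pro-apoptotic gene, rose from 9.38 ± 3.90 to 20.5 ± 3.22 CPM (1.14 (SE 0.23, adjusted p = 0.00199)) in HCT 116p53-/- cells. TRAF2, an adaptor that binds IRE1, fell in both lines, by -1.18 (SE 0.18, adjusted p = 0.000132) and -1.33 (SE 0.18, adjusted p = 8.35e-05). PMAIP1 rose in both lines, by 1.11 (SE 0.12, adjusted p = 3.6e-06) and 0.56 (SE 0.11, adjusted p = 0.00222). The amino acid transporters SLC38A2 and SLC7A1 fell in HCT 116p53-/- cells, by -0.72 (SE 0.11, adjusted p = 0.000118) and -0.70 (SE 0.13, adjusted p = 0.001). In the uL3Δ-labelled libraries 12 of the 33 other ATF4 and integrated stress response targets fell and 1 rose (KLHL24, 0.44 (SE 0.11, adjusted p = 0.0123)), with a median of -0.26 beside 0.03 over all genes, of which 8.4% fell and 3.51% rose. SLC7A1 and the cystine transporter SLC7A11 fell the most among those whose groups did not overlap, SLC7A1 from 111 ± 26.9 to 59.2 ± 1.35 CPM (-0.90 (SE 0.13, adjusted p = 0.000245)) and SLC7A11 from 134 ± 9.63 to 76.8 ± 15.4 CPM (-0.81 (SE 0.12, adjusted p = 0.000217)). In HCT 116p53-/- cells 5 of the 33 rose (15.2%) and 3 fell (9.09%), against 7.59% and 11.1% of all genes, with a median of -0.03.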

How the data were processed

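Per the labels and the study's methods, RNA of 12 samples was made into TruSeq libraries and read from both ends, and the authors trimmed the reads, removed those of contaminants and ran RSEM 1.2.25 to assign the rest to Ensembl hg38 genes. The deposited values used here are RSEM expected counts, not normalized. They are per gene for 11 libraries and per transcript for the second replicate of HCT 116p53-/- with vehicle, where they were summed per gene. RSEM divides reads that fit several genes. Its posterior standard deviation, also deposited (another quantity, used as a check), was at most 1.69% of the count for 35 of the genes and up to 9.12% for NUPR1. The deposited effective lengths gave CPM per kb. Gene names came from GENCODE v44 and promoters from RefSeq.

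Expected counts were rounded, filtered with filterByExpr (15692 of 33990 genes with a count) and normalized with TMM (factors 0.847 to 1.15). A single edgeR 4.0.16 model held all 12 libraries (common dispersion 0.0117; R 4.3.3), and tables were made with pandas 2.3.3. Lines were compared within each treatment, treatments within each line, and the responses by an interaction term, each with the quasi-likelihood test and Benjamini-Hochberg adjustment. At these depths, from 10087925 to 21138886 counts a library, the precision of a value is given by its SE, which holds both counting error and the spread between replicates. The members and gene lists were chosen with earlier results of these data known. Genes outside the 36 were named from those a rule gave: the 2 largest fold changes per list, comparison and direction among genes that reached 5 CPM in a group and did not overlap. On counts simulated for Act D in HCT 116p53-/- cells, 161 of 188 genes changed by a factor of 2 among 14685 were recovered with 8 false calls. The simulation gave all genes the common dispersion and all groups the mean levels of vehicle-treated HCT 116p53-/- cells. It therefore does not show how well smaller changes, or genes with a wider spread, would be recovered. Alternatives were DESeq2 1.42.0, library size or upper-quartile scaling, the likelihood-ratio test, no filter, 1 CPM in at least 3 libraries, a replicate block, only the 2 groups compared, a log2 fold change of at least 1, and each library left out. TPM and FPKM columns were not used.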

Additional observations from a re-analysis of the deposited data

Results flagged for a closer look

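Of the 36 genes, 3 responded differently to Act D in the lines by the interaction term of edgeR's quasi-likelihood test. The response of CEBPB in the uL3Δ-labelled libraries minus that in HCT 116p53-/- cells was -1.35 on the log2 scale (adjusted p = 0.013), that of PPP1R15A was -0.81 (adjusted p = 0.00663) and that of ASNS was -0.45 (adjusted p = 0.0464). The call of ASNS was lost without any 1 of 9 of the 12 libraries, and under library size scaling, upper-quartile scaling and the replicate block. In CEBPB the responses had opposite signs, and the library at 19.5 CPM in Act D-treated HCT 116p53-/- cells, against 9.84 and 9.33 CPM in the other two, moves with its rise there.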

How the results depend on the processing

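Of 2693 values for single genes under alternatives, 2480 kept their direction and their side of the threshold, 87 lost the call, 39 gained one and another 87 took the opposite sign. Those 87, of 35 comparisons of single genes, were called neither in the main test nor under the alternative. Such log2 fold changes under library size scaling were, for the lines with vehicle -0.055 (CEBPG), for the lines with Act D -0.076 (EIF2AK3), -0.17 (NUPR1), -0.092 (ASNS) and -0.19 (CRELD2), for Act D in HCT 116p53-/- cells -0.020 (EDEM1), for Act D in the uL3Δ-labelled libraries -0.072 (EIF2AK3), -0.073 (HYOU1), -0.046 (PDIA6), -0.079 (ERO1B), -0.021 (SYVN1), -0.012 (HERPUD1) and -0.064 (EDEM1). Such log2 fold changes under upper-quartile scaling were, for Act D in HCT 116p53-/- cells 0.027 (DDIT3) and 0.0018 (ERO1A), for Act D in the uL3Δ-labelled libraries 0.048 (SDF2L1) and 0.0049 (SEL1L), for the interaction 0.021 (CALR), 0.018 (PDIA4) and 0.019 (SEL1L). Such log2 fold changes under no filter on low counts were, for Act D in the uL3Δ-labelled libraries -0.015 (EIF2AK3), -0.0031 (HYOU1), -0.026 (ERO1B) and -0.0014 (EDEM1), for the interaction -0.014 (CANX). For the lines with Act D, leaving out 1 library gave -0.17 to 0.0045 (CEBPG), -0.31 to 0.31 (NUPR1) and -0.058 to 0.18 (CRELD2). For Act D in HCT 116p53-/- cells, leaving out 1 library gave -0.10 to 0.10 (DDIT3), -0.16 to 0.019 (SDF2L1), -0.13 to 0.048 (ERO1A), -0.091 to 0.025 (SEL1L) and -0.043 to 0.17 (EDEM1). For Act D in the uL3Δ-labelled libraries, leaving out 1 library gave -0.014 to 0.27 (ERN1), -0.12 to 0.11 (EIF2AK3), -0.083 to 0.86 (NUPR1), -0.042 to 0.15 (HYOU1), -0.16 to 0.091 (SDF2L1), -0.023 to 0.34 (CRELD2), -0.023 to 0.19 (ERO1A), -0.079 to 0.15 (ERO1B), -0.014 to 0.20 (SYVN1) and -0.0059 to 0.065 (EDEM1). For the interaction, leaving out 1 library gave -0.065 to 0.49 (HSPA5), -0.039 to 0.092 (HSP90B1), -0.30 to 0.048 (DNAJB9), -0.11 to 0.14 (SDF2L1), -0.10 to 0.093 (CALR), -0.055 to 0.063 (CANX), -0.097 to 0.018 (PDIA4), -0.00052 to 0.25 (ERO1A), -0.094 to 0.038 (SEL1L), -0.29 to 0.022 (SYVN1) and -0.13 to 0.082 (EDEM1). Where a log2 fold change of 1 or more was also required, 18 of the 36 genes were changed between the lines with vehicle (30 without it), 13 with Act D (29), 0 by Act D in HCT 116p53-/- cells (8), 1 in the uL3Δ-labelled libraries (7) and 1 in the interaction (3), and 42, 36, 6, 1 and 3 of the other 122 pathway genes. At that threshold 5912, 5824, 454, 202 and 284 of all 15692 genes tested were changed, in the same order. The replicate number as a block gave 5 changed members for Act D in HCT 116p53-/- cells in place of 8, and changed no other count of members by over 1.5 times. Same-numbered libraries did not deviate together (correlations from -0.10 to 0.10 over 18 pairs). With 3 libraries a group this cannot tell whether same-numbered libraries were handled together, which was not tested. Leaving out 1 library gave 3 to 6 changed members for Act D in HCT 116p53-/- cells, 14 to 27 other pathway genes there and 6 to 17 in the interaction. Library size scaling gave 19 other pathway genes for Act D in HCT 116p53-/- cells (29 in the main test), 6 higher and 13 lower, and DESeq2 gave 19 in the interaction (11). Library size scaling moves the median of all genes by -0.10 for Act D, and gave 2 higher and 6 lower members in HCT 116p53-/- cells and 0 higher and 8 lower in the uL3Δ-labelled libraries. Depth limits NUPR1 most, which had the lowest counts of the 36.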

Other observations

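Among the 18 chaperone, disulfide bond and ERAD genes, replicates of one group were not ordered alike. In the vehicle-treated uL3Δ-labelled libraries, 8 of the 18 were highest in replicate 1, HSPA5 (1270.2 CPM against 786 and 767), HYOU1, SDF2L1 and CRELD2 among them, whereas 9 of the 18, with HSP90B1 and CALR, were highest in replicate 2.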
